A study of Homo sapiens with 8 samples.

Results

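HDAC4, MAD1L1, SDK1, PTPRN2 and RPTOR are 5 long human genes with many CpGs within reach of reduced representation bisulfite sequencing (RRBS), which reads DNA methylation in the CpG-rich part of the genome. The 5 genes were chosen by name, with earlier results of these data known. Every CpG inside their hg19 spans was a member, grouped into tiles of 1000 bases. A tile was kept where at least 3 of its CpGs were listed in all libraries and those CpGs had at least 20 summed reads in every library. This kept 718 of the 1352 tiles of the 5 genes that hold a listed CpG, out of 170032 kept tiles on all autosomes, and the other 634 tiles of the genes are not described. The level of a tile is the percentage of its reads that were methylated, and the level of a gene is the mean of its tiles, each with equal weight.

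All 8 libraries came from HUES64, an established human embryonic stem cell line, with a knockout of both DNMT3A and DNMT3B (double knockout, DKO). There was 1 library at each of passages 6, 7, 8, 11, 13, 17, 27 and 28, and unedited cells are not part of the comparison. Passages 27 and 28 are called late and passages 6 to 8 early. Spreads over them are spreads between libraries of different passages, not between replicates. Whether 1 culture or clone was followed over time is not stated in the labels. The p-values therefore describe the scatter of these 8 libraries around a trend, and that scatter may be technical. The files hold no expression values, so the labelled cell type was not checked against markers.

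DNMT3A and DNMT3B place methyl groups on unmethylated CpGs, while DNMT1 copies existing methylation onto the new strand at each replication. The bodies of transcribed genes are usually highly methylated, a state that DNMT3B in particular upholds in mouse embryonic stem cells through its binding to H3K36me3, and promoters rich in CpGs are usually unmethylated. The genes have unrelated functions. HDAC4 is a class IIa histone deacetylase that represses transcription factors such as MEF2. MAD1L1 encodes the spindle checkpoint protein MAD1, which recruits MAD2 to unattached kinetochores. SDK1 encodes sidekick-1, a cell adhesion protein of the immunoglobulin superfamily. PTPRN2 encodes a receptor-type protein of the tyrosine phosphatase family found in secretory granules of neuroendocrine cells. RPTOR encodes raptor, the scaffold subunit that brings substrates to the mTORC1 kinase complex.

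The spans were chr2:239969864-240323348 for HDAC4, chr7:1855428-2272583 for MAD1L1 and chr7:3341080-4308631 for SDK1. PTPRN2 spans chr7:157331750-158380482 and RPTOR chr17:78518625-78940173. HDAC4, MAD1L1 and PTPRN2 were read as minus-strand genes, SDK1 and RPTOR as plus-strand genes. The 5 genes lie 0.729 to 3.31 Mb from the outermost CpG listed on their chromosome arm, PTPRN2 nearest and SDK1 farthest. The name "CpG-rich" was checked by listed CpGs per 10 kb, which measures what RRBS covered and not the CpG content of the sequence. On this measure 4 of the genes lay well above all autosomes. MAD1L1 had 55.2 listed CpGs per 10 kb, PTPRN2 38.4, HDAC4 38.3 and RPTOR 29.5, but SDK1 had 12.4, close to the 10.2 per 10 kb of all autosomes. Within 5000000 bases of chromosome ends (5 Mb, called the outer 5 Mb) the rate was 32.2, above those of RPTOR and SDK1. The kept tiles themselves were no denser than others, with a median of 8 listed CpGs in the 5 genes and 8 in the other autosomal tiles. MAD1L1 kept 190 tiles, PTPRN2 234, HDAC4 102, RPTOR 98 and SDK1 94. The shallowest library, that of passage 11, held 19898423 reads over CpGs and the deepest, of passage 6, 44599588. The median tile of a gene held 49 to 143 reads per library, depending on gene and library.

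A promoter each of HDAC4 and MAD1L1 is shown, because only these could be placed on the hg19 data. Each is the RefSeq sequence of 250 bases before to 50 bases after a transcription start on GRCh38.p14, 5′ to 3′ on the minus strand, with every CpG in capitals. They were placed by the spacing of their CpGs, which matched all 23 listed CpGs in either window, against 4 at the next best place. Other RefSeq start sequences of HDAC4, and those of SDK1 and RPTOR, could not be placed in this way and are not shown. For PTPRN2 no such sequence was available.
HDAC4 promoter, chr2:239401600-239401899: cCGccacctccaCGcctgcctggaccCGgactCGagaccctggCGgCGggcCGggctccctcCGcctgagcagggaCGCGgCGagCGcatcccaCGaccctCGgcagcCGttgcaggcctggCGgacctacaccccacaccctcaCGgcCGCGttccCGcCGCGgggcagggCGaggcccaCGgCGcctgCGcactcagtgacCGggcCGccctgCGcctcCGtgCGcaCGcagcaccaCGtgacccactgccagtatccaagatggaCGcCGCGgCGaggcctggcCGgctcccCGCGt
MAD1L1 promoter, chr7:2232896-2233195: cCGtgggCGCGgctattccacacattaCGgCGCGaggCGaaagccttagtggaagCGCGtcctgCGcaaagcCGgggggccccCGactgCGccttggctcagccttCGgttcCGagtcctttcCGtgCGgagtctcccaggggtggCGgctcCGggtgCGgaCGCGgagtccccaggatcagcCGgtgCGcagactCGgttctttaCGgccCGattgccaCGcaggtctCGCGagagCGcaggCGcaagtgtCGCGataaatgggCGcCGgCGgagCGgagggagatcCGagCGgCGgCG

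The HDAC4 sequence holds 40 CpGs and the MAD1L1 sequence 42, of which 21 and 23 were listed in all libraries. Only the listed CpGs could be read. Over all libraries, 2 of 1621 reads at the HDAC4 promoter CpGs were methylated, and 1 of 2418 at those of MAD1L1. The level of a single library reached at most 1.18% at HDAC4 and 0.312% at MAD1L1. At these CpGs both promoters were therefore near 0 at early and at late passages alike, and the changes described next lie in the bodies behind them.

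Body methylation fell with passage in all 5 genes. In the order of passages 6, 7, 8, 11, 13, 17, 27 and 28, HDAC4 had levels of 71.9%, 69.9%, 69.2%, 66.1%, 66.2%, 61.6%, 54.2% and 50.9%. MAD1L1, in the same order, had 69.1%, 68.6%, 66.5%, 61.3%, 62.5%, 57.0%, 36.3% and 31.7%. SDK1 had 73.4%, 74.2%, 72.4%, 70.6%, 69.3%, 66.4%, 56.6% and 55.3%. In these 3 genes both late libraries lay below the other 6, and the late level of MAD1L1 was the lowest of the 3. PTPRN2 had 86.5%, 86.9%, 87.2%, 85.3%, 84.8%, 84.6%, 79.0% and 78.2%. RPTOR had 63.4%, 61.8%, 62.2%, 56.2%, 55.8%, 52.8%, 37.5% and 33.6%. PTPRN2 was the highest of the 5 in every library, and RPTOR the lowest until passage 17, while MAD1L1 was lowest at passages 27 and 28.

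MAD1L1 averaged 33.98% at late passages (n = 2) and 68.1% ± 1.36 at early passages (SD, n = 3), so that 49.9% of its early level was left. RPTOR averaged 35.6% late and 62.5% ± 0.825 early, and 56.9% was left. HDAC4 averaged 52.6% late and 70.3% ± 1.39 early, with 74.7% left. SDK1 was close to HDAC4, at 55.9% late and 73.3% ± 0.930 early, with 76.2% left. PTPRN2 averaged 78.6% late and 86.9% ± 0.373 early, and 90.5% was left. The 169314 other autosomal tiles averaged 47.6% late and 57.6% ± 0.254 early, with 82.6% left. The share of the early level that remained was thus larger in PTPRN2 than in those tiles and smaller in the other 4 genes.

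**Figure D1:**
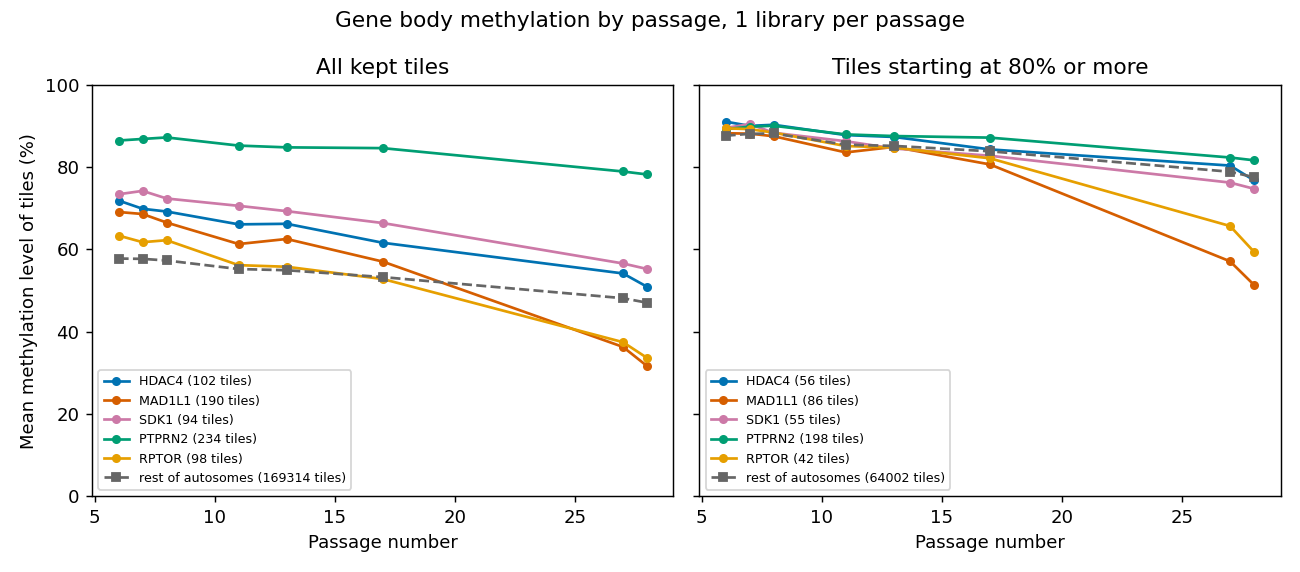
Mean methylation level (%) against passage number for each gene and for the other autosomal tiles, over all kept tiles (left) and over tiles that averaged 80% or more at passages 6 to 8 (right). Each point is 1 library. In the left panel MAD1L1 reaches 31.7% and RPTOR 33.6% at passage 28, while PTPRN2 stays at 78.2%.

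By least squares the slope in points per passage was -1.65 ± 0.117 in MAD1L1, -1.29 ± 0.0747 in RPTOR, -0.870 ± 0.0410 in HDAC4, -0.8499 ± 0.0364 in SDK1 and -0.394 ± 0.0355 in PTPRN2 (SE, n = 8). Pearson's r ranged from -0.995 in SDK1 to -0.976 in PTPRN2, and Spearman's rho was -0.976 in each gene (exact permutation p = 0.000397) except PTPRN2, where it was -0.905 (exact permutation p = 0.00456). All 5 trends passed an exact two-sided permutation test over the 40320 orders of the libraries, with p between 4.96e-05 and 0.000397, or 0.000114 and 0.000435 adjusted (Benjamini-Hochberg over 23 trends). Over passages 6 to 17 alone, the slope was -1.09 in MAD1L1 (r = -0.968, exact permutation p = 0.00556, n = 6), -1.001 in RPTOR (r = -0.969, p = 0.00278), -0.853 in HDAC4 (r = -0.981, p = 0.00278), -0.685 in SDK1 (r = -0.985, p = 0.00278) and -0.236 in PTPRN2 (r = -0.883, p = 0.0347). After passage 17 came 67.6% of the whole fall in MAD1L1, 73.0% in PTPRN2, 64.1% in RPTOR, 60.3% in SDK1 and 51.0% in HDAC4, against 56.7% in the other autosomal tiles. An even rate per passage would place 51.2% there, close to the value of HDAC4. MAD1L1 changed by -2.07 points per passage between passages 17 and 27 and by -1.05 between passages 8 and 17. HDAC4 changed by -0.746 and -0.844 points per passage over the same intervals. Each of these steps rests on 1 library at either end. The neighbouring libraries of passages 28 and 27 differed by -4.65 points in MAD1L1, -3.82 in RPTOR and -3.24 in HDAC4. They differed by -1.34 points in SDK1, -0.721 in PTPRN2 and -1.10 in the other autosomal tiles.

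The bodies began at different levels, so the genes were also compared over tiles that averaged 80% or more at early passages (high-start tiles). These made up 198 of the 234 tiles of PTPRN2, 86 of 190 in MAD1L1, 56 of 102 in HDAC4, 55 of 94 in SDK1 and 42 of 98 in RPTOR. Their share was 60.9% over the 5 genes and 37.8% over the other autosomal tiles. Only PTPRN2 had no kept tile that began under 20%.

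From like starting levels MAD1L1 and RPTOR lost the most. The early libraries that chose the high-start tiles also gave their early levels and entered their slopes. How much this choice added to the measured falls was not tested. The high-start tiles of the other autosomal tiles and of the outer 5 Mb were chosen in the same way. High-start tiles of MAD1L1 averaged 54.2% late and 88.0% ± 0.394 early, and those of RPTOR 62.6% late and 89.0% ± 0.562 early (SD, n = 3). SDK1 averaged 75.5% late and 89.5% ± 1.07 early, and HDAC4 78.6% late and 90.5% ± 0.538 early. PTPRN2 averaged 82.0% late and 89.7% ± 0.433 early. The 64002 other high-start tiles of the autosomes averaged 78.2% late and 88.0% ± 0.289 early, and the 12881 of them in the outer 5 Mb 73.2% late and 88.4% ± 0.176 early. At passage 17 MAD1L1 still had 80.7% and RPTOR 82.2%, close to the 83.9% of the other autosomal tiles, and most of the gap lay in the libraries of passages 27 and 28.

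The difference between a gene and the other high-start tiles was itself tested for a trend on passage, in 1 family of 24 differences. The RPTOR minus rest difference, from passage 6 to passage 28, was 1.80, 1.14, 0.206, -0.318, -0.408, -1.71, -13.2 and -18.2 points. It ran downhill at every step, by -0.819 ± 0.111 points per passage (slope with SE, n = 8; r = -0.949, exact permutation p = 2.48e-05, the smallest 8 libraries allow, adjusted p = 0.000198; rho = -1, exact permutation p = 4.96e-05). The slope of MAD1L1 minus rest was -1.17 ± 0.169 (r = -0.943, exact permutation p = 0.000595, adjusted p = 0.00119; rho = -0.929, exact permutation p = 0.00223), with differences of -21.8 and -26.2 points at passages 27 and 28 and of 0.594 to -3.19 before. PTPRN2 ran the other way. Its difference from the rest had a slope of 0.1004 ± 0.0126 (r = 0.956, exact permutation p = 9.92e-05, adjusted p = 0.000298; rho = 0.976, exact permutation p = 0.000397), and was 3.78 points late and 1.74 ± 0.148 early.

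The differences of SDK1 and HDAC4 from the rest had smaller slopes than those of RPTOR and MAD1L1. The slope of SDK1 minus rest was -0.208 ± 0.0305 (adjusted exact permutation p = 0.00119, n = 8) and that of HDAC4 minus rest -0.115 ± 0.0377 (adjusted exact permutation p = 0.0261, n = 8). The HDAC4 call was lost without the library of passage 6 (slope -0.0944, adjusted exact permutation p = 0.0755) or of passage 28 (-0.0726, p = 0.176). Both calls were also lost in tiles starting at 90% or more. With CpGs of at least 10 reads in every library HDAC4 passed in the opposite direction, with a slope of 0.535 (adjusted exact permutation p = 0.00417), and the SDK1 slope was 0.00892 (p = 0.961). Over passages 6 to 17 alone the slopes against the rest were -0.284 in RPTOR (exact permutation p = 0.00139, unadjusted, n = 6), -0.279 in MAD1L1 (p = 0.0347), -0.284 in SDK1 (p = 0.0347), -0.181 in HDAC4 (p = 0.0625) and 0.150 in PTPRN2 (p = 0.00556).

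All 5 genes lie near chromosome ends, where high-start tiles had a lower late mean (73.2%) than over all other autosomal tiles (78.2%), so the same test was made against the outer 5 Mb. RPTOR still lost more, with a slope of the difference of -0.556 ± 0.0841 (adjusted exact permutation p = 0.000198, n = 8), and so did MAD1L1, with -0.909 ± 0.143 (adjusted exact permutation p = 0.00327). PTPRN2 lost less, with 0.364 ± 0.0240 (adjusted exact permutation p = 0.000238), and was 8.77 points above the outer 5 Mb late and 1.34 ± 0.361 early. For SDK1 the slope of 0.0554 ± 0.0479 did not pass the test (adjusted exact permutation p = 0.292). HDAC4, at 0.148 ± 0.0472, passed narrowly (adjusted exact permutation p = 0.0322), although its rank correlation with passage did not (rho = 0.357, exact permutation p = 0.389). That HDAC4 call was lost without the library of passage 7 (slope 0.125, p = 0.0694), 8 (0.0559, p = 0.295), 11 (0.120, p = 0.0935), 27 (0.0663, p = 0.216) or 28 (0.158, p = 0.126), each by the same exact permutation test.

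Against high-start tiles at the end of the gene's own chromosome, a comparison added after seeing the data, the slopes of the difference were -0.722 ± 0.112 for MAD1L1 and -0.415 ± 0.0733 for RPTOR. PTPRN2 had 0.201 ± 0.0295, SDK1 0.243 ± 0.0762 and HDAC4 0.109 ± 0.0397. MAD1L1 and SDK1 lie at the same end of chromosome 7 and share the 382 tiles they were set against, which averaged 69.2% late and 88.1% early, while PTPRN2 lies at the other end, where 220 tiles averaged 77.7% late and 89.4% early.

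The genes were also set against each other over high-start tiles. Of the 10 pairs, 9 had a slope of the difference that passed the test. PTPRN2 lost more slowly than RPTOR (slope of PTPRN2 minus RPTOR 0.920 ± 0.107), than MAD1L1 (MAD1L1 minus PTPRN2 -1.27 ± 0.164), than SDK1 (SDK1 minus PTPRN2 -0.309 ± 0.0345) and than HDAC4 (HDAC4 minus PTPRN2 -0.216 ± 0.0474), with adjusted exact permutation p between 0.000238 and 0.00592 (n = 8). HDAC4 minus SDK1 was the pair that did not pass, at 0.0930 ± 0.0476 (adjusted exact permutation p = 0.103, n = 8). MAD1L1 minus RPTOR had -0.354 ± 0.0706 (adjusted exact permutation p = 0.0257), with differences of -8.58 and -8.04 points at passages 27 and 28 and of 0.160 to -1.55 in the 6 earlier libraries. The pairs of MAD1L1 with RPTOR, MAD1L1 with SDK1 and SDK1 with RPTOR lost the call without passage 27 (slopes -0.298, -0.925 and 0.626) or without passage 28 (-0.333, -0.776 and 0.443), and HDAC4 with PTPRN2 lost it without passage 28 (-0.161). By ranks the first 3 of these pairs did not pass even with all libraries (rho = -0.595, exact permutation p = 0.132; rho = -0.548, exact permutation p = 0.171; rho = 0.500, exact permutation p = 0.216), nor did HDAC4 with MAD1L1 (rho = 0.714, exact permutation p = 0.0576).

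Within each body the loss was uneven from tile to tile. Methylated and unmethylated reads of each tile were regressed on passage in a quasi-binomial model. A tile counts as lost or gained where the adjusted p is under 0.05 and the model's levels at passages 6 and 28 differ by 10 points or more. Over all autosomes 40610 of 141623 tested tiles (28.7%) were called as lost and 159 (0.112%) as gained, and in the outer 5 Mb the shares were 49.0% and 0.212%. MAD1L1 lost methylation in 155 of its 186 tested tiles and RPTOR in 64 of 90, or 83.3% and 71.1%, above both backgrounds. HDAC4 lost it in 52 of 96 tiles (54.2%) and SDK1 in 43 of 89 (48.3%), above the autosomes and close to the outer 5 Mb. PTPRN2 lost it in 51 of 232 tiles (21.98%), below both. Without the library of passage 28 the PTPRN2 count was 30 of 234. The count on all autosomes also moved as single libraries were left out, between 29185 and 42171, against 40610 with all libraries. Whether PTPRN2 moved more than the autosomes was not tested.

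No tile of the 5 genes was called as gained. A count of none in 693 tested tiles is near the share of 0.112% on all autosomes, and the difference was not tested. By the same limma-moderated fit 1 of the 693 tiles, in PTPRN2, rose at an unadjusted p under 0.05, against 642 of 141623 on all autosomes. Limma on logit levels called 1 gain among 718 tiles. The called losses had a median fitted change of -38.3 points in MAD1L1, -34.7 in RPTOR, -30.8 in both HDAC4 and SDK1 and -20.7 in PTPRN2. The median was -29.4 points in the other autosomal tiles called as lost and -32.1 in those of the outer 5 Mb. Measured falls of 50 points or more from the early to the late mean occurred in 49 of 190 tiles of MAD1L1 and 17 of 98 in RPTOR. They occurred in 10 of 102 tiles in HDAC4, 5 of 94 in SDK1 and none of 234 in PTPRN2. Among the other autosomal tiles the count was 4306 of 169314, and in the outer 5 Mb 2308 of 37533. The SDK1 share was close to that of the outer 5 Mb.

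Among high-start tiles, 22.4% of those tested on all autosomes were called as lost and 0.0565% as gained, and in the outer 5 Mb 40.4% and 0.0303%. The same count was 69 of 86 in MAD1L1, 29 of 41 in RPTOR, 23 of 55 in HDAC4 (41.8%), 18 of 53 in SDK1 (33.96%) and 40 of 196 in PTPRN2 (20.4%). The PTPRN2 share was close to that of all autosomes and below that of the outer 5 Mb, and the HDAC4 share was close to the outer 5 Mb. Tiles that began between 20 and 80% fell further in relation to their start, in the 5 genes and in the other autosomal tiles. The 63456 other autosomal tiles of this class averaged 47.4% late and 63.2% early. In this class MAD1L1 averaged 20.1% late and 59.2% early over 89 tiles, RPTOR 20.3% late and 54.5% early over 42, HDAC4 28.9% late and 61.6% early over 33, SDK1 36.6% late and 63.4% early over 30, and PTPRN2 59.8% late and 71.1% early over 36.

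**Figure D2:**
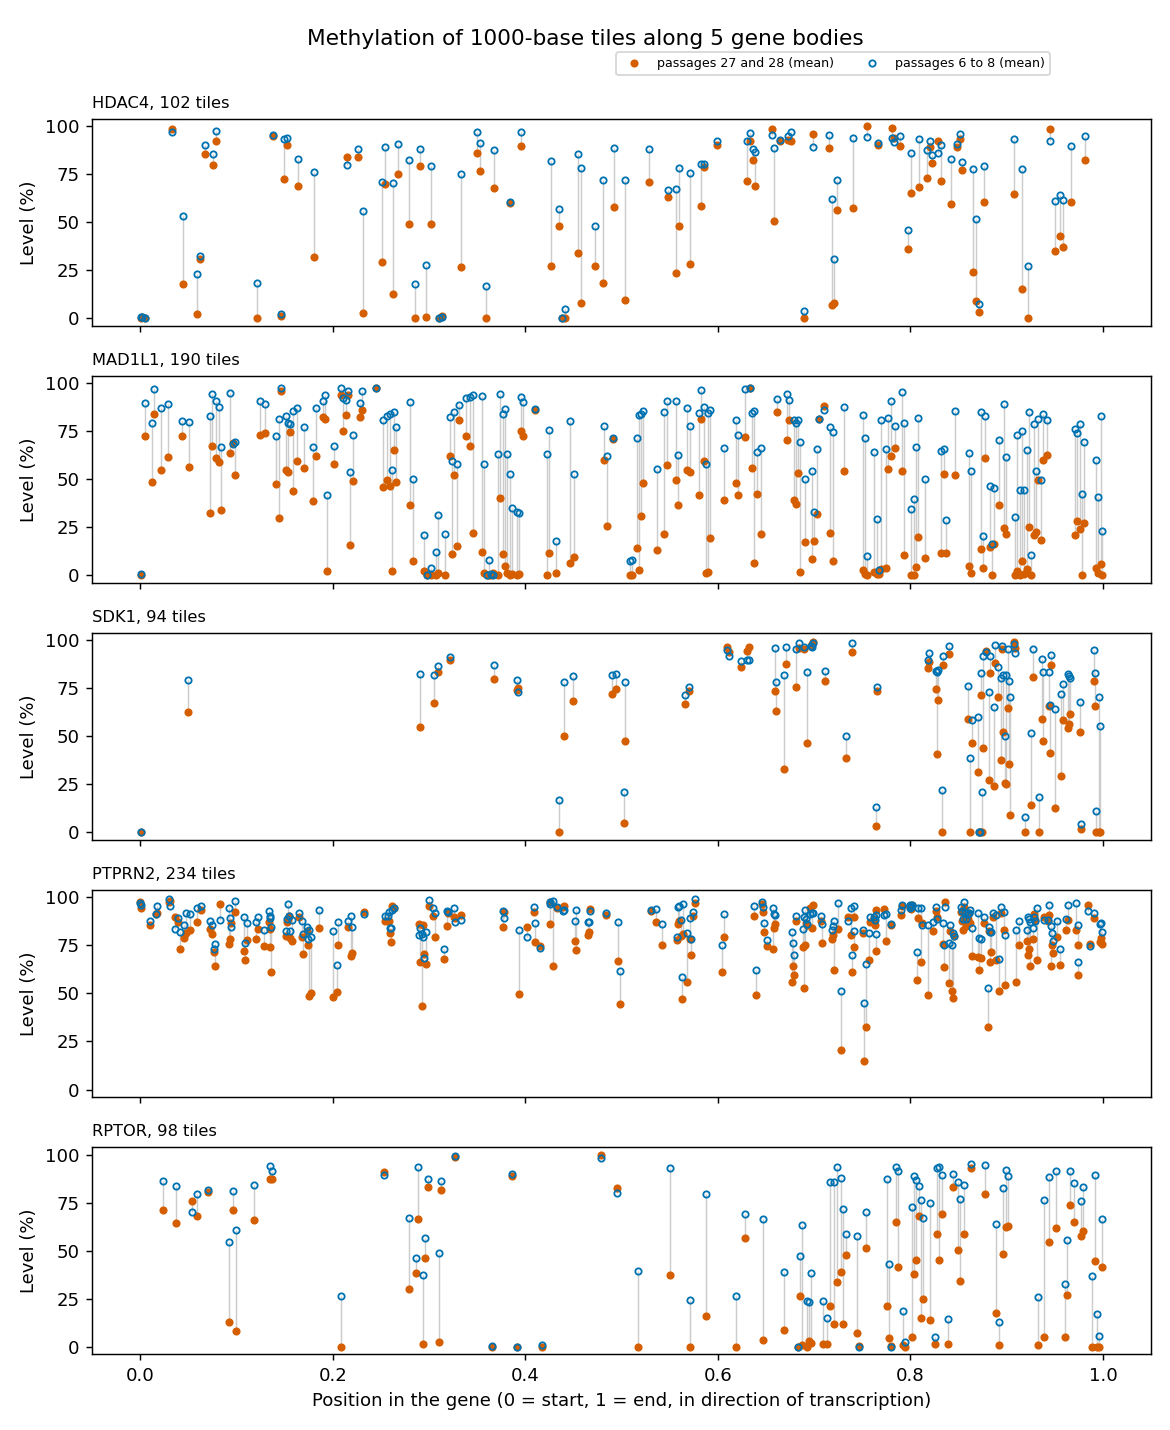
Level (%) of every kept tile along each gene, from its start at 0 to its end at 1 in the direction of transcription. Filled points are the mean of passages 27 and 28, open points the mean of passages 6 to 8, joined by a line. In PTPRN2 every tile begins above 20%, and none of its 234 tiles falls by 50 points, while 49 of the 190 tiles of MAD1L1 do.

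Some tiles kept nearly full methylation beside others that lost nearly all of it. Of the tiles at 80% or more in each early library, those still there in both late libraries were 102 of 155 in PTPRN2 (65.8%, Wilson 95% interval 58.0 to 72.8), 27 of 47 in HDAC4 (57.4%, 43.3 to 70.5) and 20 of 39 in SDK1 (51.3%, 36.2 to 66.1). They were 9 of 36 in RPTOR (25%, 13.8 to 41.1) and 12 of 62 in MAD1L1 (19.4%, 11.4 to 30.9). The other autosomal tiles kept 51.8% (51.3 to 52.2), and those in the outer 5 Mb 43.1% (42.1 to 44.1). The PTPRN2 interval lay above both values and those of MAD1L1 and RPTOR below both, while the HDAC4 interval held the first value and lay just above the second. Neighbouring tiles are not independent, and these intervals cover counting only.

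Late levels under 20% were reached by 13 of the 86 high-start tiles of MAD1L1 and by 1 of the 42 of RPTOR. No high-start tile of HDAC4, SDK1 or PTPRN2 went that low, and of the other autosomal high-start tiles 0.616% did, or 1.87% of those in the outer 5 Mb. None of these tiles of the 5 genes was under 20% at passage 17. The spread between high-start tiles was 26.3 points late and 5.13 early in MAD1L1, and 11.4 late and 4.81 early in PTPRN2 (SD over tiles).

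**Figure D3:**
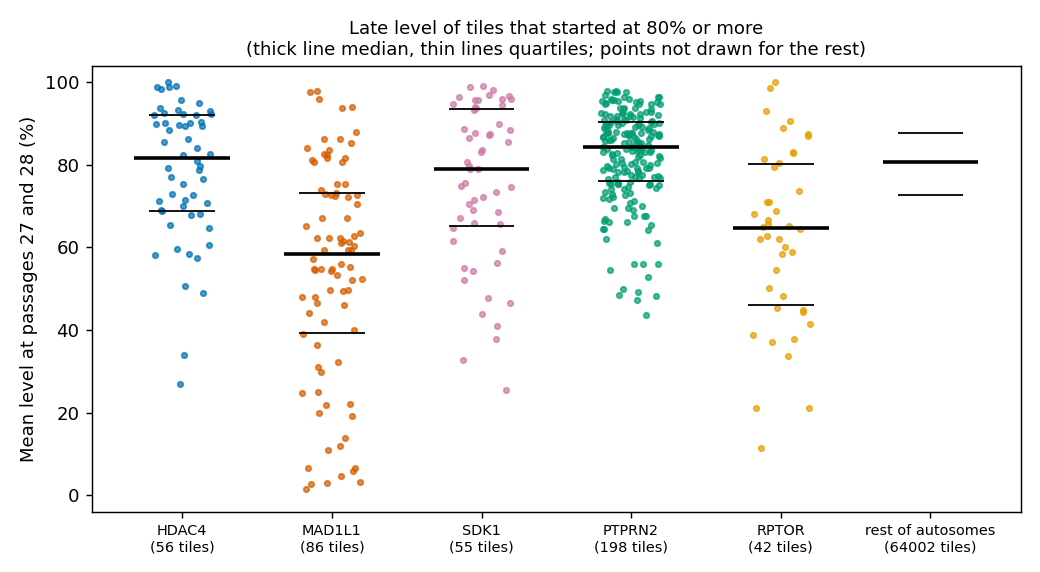
Mean level (%) at passages 27 and 28 of each tile that averaged 80% or more at passages 6 to 8, by gene, with medians as thick lines and quartiles as thin lines, and the same for the other autosomal tiles without points. The medians are 81.7% in HDAC4, 58.3% in MAD1L1, 78.9% in SDK1, 84.3% in PTPRN2, 64.7% in RPTOR and 80.6% in the other tiles.

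The deepest loss of the 5 genes was in MAD1L1, at chr7:2026001-2027000 in the middle of the body (19 CpGs). Its levels from passage 6 to passage 28 were 77.9%, 89.1%, 86.3%, 67.4%, 70.5%, 60.2%, 3.08% and 0%. It fell to a late mean of 1.54% (326 pooled reads, Wilson 95% interval 0.846 to 3.96), against 84.4% ± 5.84 early (SD, n = 3; adjusted p = 2.1e-07). Here and in the other genes, the tiles with the largest falls and the best kept tiles were chosen by their early or late means. Their gaps and adjusted p-values describe the chosen tiles and are no separate support. A similar tile at chr7:2114001-2115000 fell to 4.68% late, against 86.4% ± 2.22 early. Only 18 kb from the tile that fell furthest, chr7:2008001-2009000 (14 CpGs) had 97.8% late and 97.8% ± 1.28 early, and lay between 94.0 and 98.7% in every library.

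In SDK1, of 2 tiles 4 kb apart 1 fell and the other stayed high. The tile at chr7:4215001-4216000 (10 CpGs) had 71.7%, 68.0%, 71.5%, 57.8%, 62.5%, 46.7%, 9.15% and 9.30% from the lowest passage to the highest (adjusted p = 3.5e-08). The tile at chr7:4219001-4220000 had 98.9% late and 98.0% ± 1.70 early, and was between 97.1 and 100% in all libraries. It had too few unmethylated reads to be tested. The tile with the largest fall, chr7:4304001-4305000 near the end of SDK1, had 60.2%, 75.6%, 76.0%, 80%, 87.5% and 76.6% at passages 6 to 17 and 0 methylated of 166 reads at passages 27 and 28, which allows a level of up to 1.81%. Its whole fall came after passage 17. Over passages 6 to 17 alone the fitted change was 16.5 points upward and did not pass the test (adjusted p = 0.236).

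In RPTOR, chr17:78822001-78823000 fell to 11.6% late, against 85.7% ± 0.360 early (adjusted p = 1.6e-08), and chr17:78914001-78915000 to 5.01%, against 76.3% ± 4.65. The first of these was already down to 65.1% at passage 13 and 45.5% at passage 17. The best kept tile of RPTOR, at chr17:78882001-78883000, had 93.0% late and 95.002% ± 4.54 early. In HDAC4, chr2:240161001-240162000 (3 CpGs) fell to 8.09%, against 78.1% ± 8.65, while chr2:240047001-240048000 had 99.1% late and 94.1% ± 1.77 early. In PTPRN2 even the largest fall left much of the methylation, with 43.6% late and 80.9% ± 2.97 early at chr7:158073001-158074000 (168 late reads, Wilson 95% interval 36.2 to 51.0; adjusted p = 2.5e-05). Its late libraries had 42.6% and 44.6%, and the other 6 lay between 65.3 and 84.0%, in a tile chosen for its fall.

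**Figure D4:**
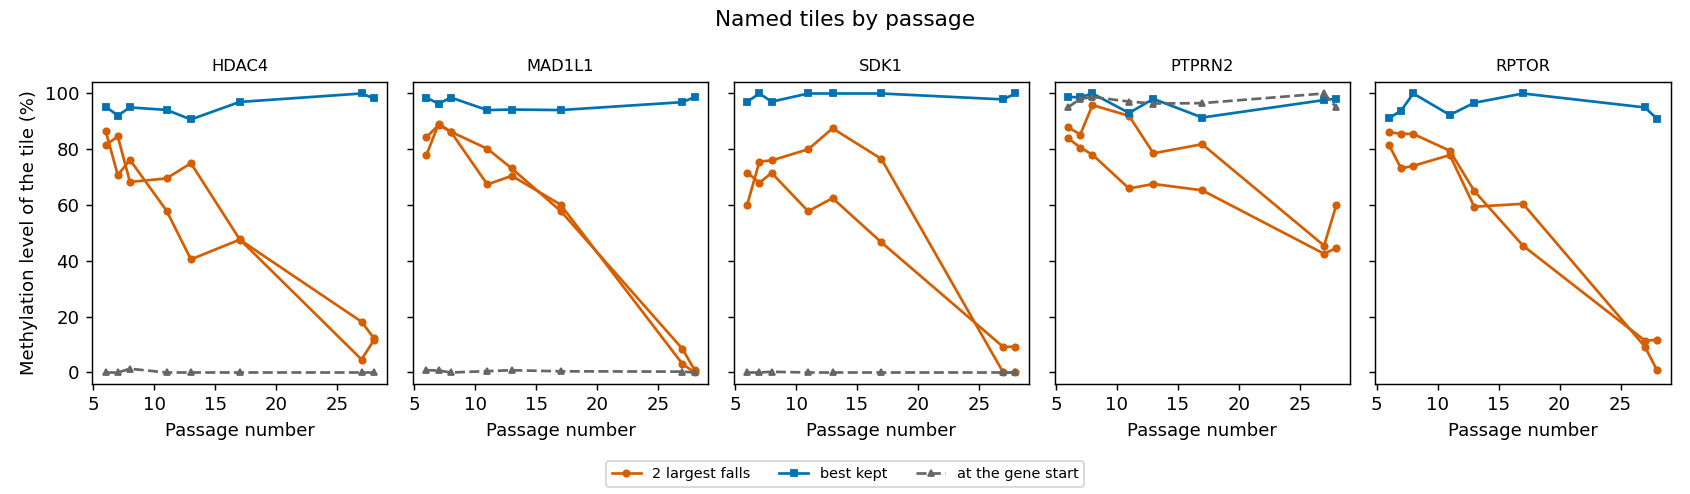
Level (%) by passage of the 2 called tiles with the largest fall, the best kept tile and the tile at the gene start, where one was kept. Each point is 1 library. The best kept tiles stay above 90% in every library, and the start tiles of HDAC4, MAD1L1 and SDK1 stay near 0% while that of PTPRN2 stays above 95%.

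The tiles and CpGs at the starts of HDAC4, SDK1, MAD1L1 and RPTOR were near 0 at early and late passages. The start tile of HDAC4 had 0 methylated of 435 late reads, which allows a level of up to 0.690%, and 0.444% ± 0.770 early. That of SDK1 had 0 of 847 late reads, allowing up to 0.354%, and 0.0846% ± 0.147 early. That of MAD1L1 had 0.156% late and 0.524% ± 0.457 early. The wider windows of MAD1L1 had lower late means, with 4.78% late and 8.59% ± 2.35 early in the first 2000 bases of the gene (35 CpGs) and 13.6% late and 20.9% ± 1.999 early in the 2000 bases before it (27 CpGs). For RPTOR no start tile was kept, and 5 CpGs in the first 2000 bases had 0 methylated reads in every library, where the deepest library allows up to 4.29%. The 5 CpGs in the 2000 bases before the RPTOR start had 47.7% late and 72.8% ± 12.0 early, and the libraries of passages 27 and 28 differed there, at 28.1% and 67.3%. PTPRN2 was the exception. Its start tile (20 CpGs) had 97.5% late and 97.3% ± 1.98 early, and the first 2000 bases of the gene, with 47 CpGs, 95.8% late and 96.5% ± 0.746 early. The 29 CpGs in the 2000 bases before the PTPRN2 start had 83.0% late and 95.8% ± 1.36 early, with 83.6% and 82.4% at passages 27 and 28 and at least 94.3% before.

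At the far end, the last 2000 bases of MAD1L1 (37 CpGs) had 59.9%, 57.3%, 61.8%, 55.1%, 57.3%, 46.4%, 3.58% and 2.93% from passage 6 to passage 28. Those of RPTOR (16 CpGs) had 39.1% late and 60.6% ± 2.19 early, and those of PTPRN2 (22 CpGs) 76.2% late and 81.8% ± 4.94 early. In all 3 the late mean lay below the early mean, and in PTPRN2 the libraries overlapped. HDAC4 had no CpG listed in all libraries there, and SDK1 had 3.

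Position along the body was compared by cutting each gene into 5 equal segments, from segment 1 at the start to segment 5 at the end, with tiles near the start set apart. Over the 5 genes together, high-start tiles had 71.8% late and 88.7% early in segment 5, and 77.4% late and 89.1% early in segment 1. The slope of segment 5 minus segment 1 was -0.250 points per passage ± 0.0399 (adjusted exact permutation p = 0.00592, n = 8), and over passages 6 to 17 alone -0.125 (exact permutation p = 0.247, n = 6). The middle segment 3 was lower still, at 67.5% late and 89.3% early. The genes differ in where their tiles lie, so the same difference was then taken within each gene, a step added after seeing the data. MAD1L1 lost more in segment 5, at 37.5% late and 84.0% early, than in segment 1, at 64.4% late and 89.0% early (slope of the difference -1.08 ± 0.136, adjusted exact permutation p = 0.00443 over 8 such tests, n = 8). RPTOR showed the same order, at 61.1% late and 88.8% early in segment 5 and 75.3% late and 86.0% early in segment 1 (-0.825 ± 0.147, adjusted exact permutation p = 0.0103). In HDAC4 (-0.270 ± 0.195, adjusted exact permutation p = 0.238) and PTPRN2 (-0.0944 ± 0.0359, p = 0.0510) the difference did not pass, and SDK1 has too few tiles in segment 1. The loss did not grow steadily toward the gene end. In RPTOR the late level was lowest in segment 4, at 33.3% late and 89.3% early over 7 high-start tiles. In HDAC4 it was lowest in segment 3, at 59.6% late and 85.5% early over 7 tiles. Segment 3 of MAD1L1, at 40.1% late and 86.6% early over 14 tiles, was close to its segment 5.

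The relation of loss to CpG density had one sign in PTPRN2 and the opposite sign in MAD1L1 and RPTOR. Over the 5 genes together, high-start tiles with 20 or more listed CpGs had 79.1% late and 90.1% early, and those with 3 to 9 had 73.0% late and 89.5% early (slope of dense minus sparse 0.266 ± 0.0178, adjusted exact permutation p = 0.000595, n = 8). Of the 58 dense tiles, however, 39 belong to PTPRN2. Within PTPRN2 the dense tiles changed by -2.86 points and the sparse tiles by -10.0 (slope of the difference 0.349 ± 0.0444, adjusted exact permutation p = 0.00443). Within MAD1L1 the order was the opposite, with -38.6 points in 9 dense tiles and -30.6 in 52 sparse tiles (-0.396 ± 0.0559, adjusted exact permutation p = 0.00377), and within RPTOR as well, with -35.7 in 4 dense tiles and -24.7 in 22 sparse tiles (-0.547 ± 0.110, adjusted exact permutation p = 0.0326). In HDAC4 the difference of 0.0366 ± 0.116 did not pass (adjusted exact permutation p = 0.766). SDK1 was not tested, since it has 2 dense high-start tiles and at least 3 were required. These averaged 97.4% late and 96.9% early, against 74.9% late and 89.9% early in its 44 sparse tiles. The mean of the differences within the 4 tested genes had a slope of -0.139 (exact permutation p = 0.0413, n = 8), and with SDK1 included 0.0369 (exact permutation p = 0.443), so its sign rests on leaving SDK1 out. The pooled slope was -0.0297 (adjusted exact permutation p = 0.305) with CpGs of at least 5 reads in every library and 0.22 (p = 0.0137) with at least 10.

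Tiles with the most CpGs were few outside PTPRN2. Away from the starts PTPRN2 held 13 of the 15 tiles with 35 or more listed CpGs, and 12 of them began at 80% or more. On all autosomes 12.6% of the tested tiles with 35 or more listed CpGs and a start of 80% or more were called as lost. None of the 13 was called as lost, and so none of the 12 with such a start. A count of none in 12 tiles is near a share of 12.6%, and the difference was not tested. The mean of the 13 was 88.6% late and 90.8% early. The densest, chr7:158218001-158219000 with 103 listed CpGs, had 90.5% late and 90.3% ± 2.54 early. The SDK1 tile at chr7:4016001-4017000 had 98.0% late and 96.6% ± 0.536 early (1550 late reads, Wilson 95% interval 97.2 to 98.6). The RPTOR tile at chr17:78850001-78851000 had 93.0%, 91.3%, 89.8%, 89.5%, 90.5%, 84.4%, 48.9% and 33.8% from passage 6 to passage 28 and was the 1 of the 15 that was called as lost (adjusted p = 1.2e-08). Most of its fall came after passage 17.

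**Figure D5:**
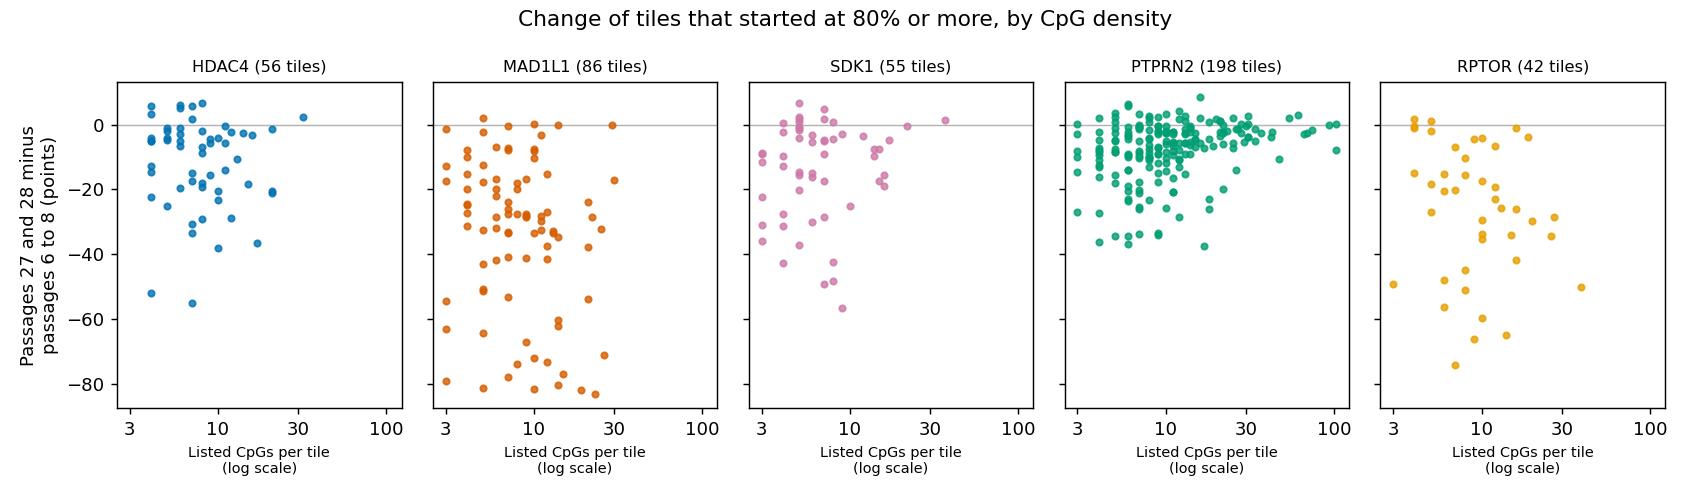
Mean level at passages 27 and 28 minus that at passages 6 to 8 (points) of each high-start tile against the number of listed CpGs in the tile on a log scale, by gene. In PTPRN2 the densest tiles lie near 0, and in MAD1L1 and RPTOR tiles with 20 or more CpGs average -38.6 and -35.7 points.

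Tiles next to each other differed less than tiles of the same gene in general. Adjacent high-start tiles differed in their change by a median of 4.07 points in HDAC4, 13.4 in MAD1L1, 4.02 in SDK1, 4.87 in PTPRN2 and 13.98 in RPTOR, over 9 to 67 pairs. All pairs of high-start tiles of a gene differed by a median of 12.4, 21.9, 13.0, 7.03 and 20.2 points in the same order of genes. These medians are a description without a test.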

How the data were processed

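RRBS libraries of 8 passages were analysed on hg19, per the submitters' processing notes. In the deposited files, the fourth column gives the authors' methylated and total reads per CpG, and the fifth column a score, which is 1000 times the methylated share on every line and was not used. The sources used here name no aligner, caller or coverage filter. Intervals and limits for 0 cover counting error only.

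Reads were summed per tile of 1000 bases, clipped at gene ends. Trends used exact permutation of Pearson's r over 40320 orders (smallest p 2.48e-05). Tiles with at least 10 methylated and 10 unmethylated reads were fitted by quasi-binomial regression, with the dispersion moderated by limma 3.58.1 (R 4.3.3) and held at 1 or above, an F test and Benjamini-Hochberg adjustment over all 141623 tested autosomal tiles. The fit was also run on simulated tiles with a common dispersion and changes linear in passage. That run does not cover tiles of differing dispersion or steps between passages. Python 3.11.15 did the rest. Named tiles per gene were those at the start, the 2 largest called falls, the best kept tile of at least 5 CpGs starting at 80% or more, and the densest. The members, lists and tests were chosen with earlier results of these data known. The outer 5 Mb leaves out the p ends of chromosomes 13, 14, 15, 21 and 22. Promoter sequences and strands came from RefSeq (GRCh38.p14), with the PTPRN2 strand from general knowledge of the gene.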

Additional observations from a re-analysis of the deposited data

How the results depend on the processing

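No paired analysis was possible because there is only 1 library at each passage. The slopes of the 5 gene levels kept their direction and stayed past the threshold under all 100 alternative values computed for them. So did the differences of PTPRN2 and RPTOR from the other high-start tiles and from the outer 5 Mb. For the changes that follow the cause was not tested, except where fewer CpGs, tiles or libraries were used by construction.

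With CpGs of at least 5 reads in every library, HDAC4 minus SDK1 passed (0.176), the density difference was -0.0297 in high-start tiles and 0.0242 over all starts without passing, and losses were 236 of 426 tested tiles in the 5 genes and 25528 of 70746 on all autosomes. With at least 10 reads the slopes against the rest were 0.535 in HDAC4, which passed in the opposite direction, and 0.00892 in SDK1, which did not pass, HDAC4 minus SDK1 was 0.526 and passed, HDAC4 minus PTPRN2 was 0.0444, and MAD1L1 minus RPTOR was 0.236. At that setting few tiles were left, the share kept at 80% or more was 100% in HDAC4 and SDK1 and 78.6% in PTPRN2, and losses were 44 of 81 tiles in the 5 genes and 5595 of 11742 on all autosomes, with 21 gains. A tile minimum of 10 reads ended the call of HDAC4 minus outer (0.0771). A minimum of 50 reads gave 189 losses among 330 tested tiles of the 5 genes (57.3%). On all autosomes it gave 19339 among 53323 (36.3%), with 67 gains (0.126%). The shares kept were then 8.70% in MAD1L1 and 5.88% in RPTOR.

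Leaving out each library in turn gave slopes of -0.217 to -0.0726 for HDAC4 minus rest, 0.0559 to 0.171 for HDAC4 minus outer, -1.08 to -0.776 for MAD1L1 minus SDK1, -0.362 to -0.292 for MAD1L1 minus RPTOR, 0.443 to 0.721 for SDK1 minus RPTOR and -0.353 to -0.161 for HDAC4 minus PTPRN2. Gains in the 5 genes numbered 0 to 1, and the share of PTPRN2 tiles kept was 60 to 77.1%.

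With passages 6 to 17 alone, and tiles chosen anew, these slopes did not pass: HDAC4 (-0.179), MAD1L1 (-0.287) and SDK1 (-0.289) minus rest, HDAC4 (-0.0568) and MAD1L1 (-0.165) minus outer, HDAC4 minus MAD1L1 (0.108), HDAC4 minus RPTOR (0.103), MAD1L1 minus SDK1 (0.00226), MAD1L1 minus RPTOR (-0.00483), SDK1 minus RPTOR (-0.00709) and the position difference (-0.129). Losses were then 105 of 692 tested tiles in the 5 genes (15.2%), with 2 gains (0.289%), and 11400 of 142064 on all autosomes (8.02%). Of the named tiles, 6 lost their call at this setting and SDK1 chr7:4304001-4305000 turned to a rise of 16.5 points.

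Pooled reads gave SDK1 slopes of -0.0543 against the rest, without passing, and 0.209 against the outer 5 Mb, which passed (adjusted exact permutation p = 0.0361). The slope of 0.243 against its own chromosome end, added after seeing the data, had an exact permutation p of 0.0324 that was not adjusted. HDAC4 minus rest lost its call with the mean of CpG levels (-0.0633) and starts of 90% or more (-0.00597). HDAC4 minus outer lost it on log2 passage (1.33 per doubling), with the start class from passage 6 (0.0658), with starts of 90% or more (0.129) and of 70% or more, where it was -0.0540. The start class from passage 6 also ended MAD1L1 minus RPTOR (-0.110). At 90% or more SDK1 minus rest (-0.0315), HDAC4 minus PTPRN2 (-0.0914) and SDK1 minus PTPRN2 (-0.117) did not pass, MAD1L1 minus RPTOR was 0.109, and the shares kept were 36.4% in HDAC4 and 47.7% in PTPRN2. At 70% or more the PTPRN2 share was 77.4%. Limma on logit levels gave 1 gain among 718 tiles of the 5 genes, and no minimum change 1 among 693. Of 141623 tested tiles on all autosomes, gains were 245 with no minimum change and 66 with a minimum of 20 points. The mean of within-gene density differences was -0.139 in high-start tiles and 0.0806 over all starts, the second of which did not pass. With SDK1 included the first was 0.0369 and did not pass either.

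Depth limits single tiles more than gene levels: passage 11 has the fewest reads, and each late value rests on 2 libraries.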
